A study of Mus musculus with 8 samples.

Results

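The collagen genes of the mouse, those whose symbol has the form Col, a type number, a and a chain number, made up 44 of the 55401 genes in the expression table. Each collagen gene with a mean of at least 0.1 FPKM (fragments per kilobase, a level scaled to gene length and library size) over all 8 libraries was tested, which kept 43. Col10a1, a network-forming collagen of growth cartilage, was under that limit with a mean of 0.079 FPKM, and Col17a1 and Col14a1 lay just above it with means of 0.118 and 0.143 FPKM. Symbols were sorted into 11 fibrillar genes, 8 basement membrane genes and 25 others, of which 24 were tested.

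RNA was sequenced from hypothalami of mice at postnatal day 19. Of these, 4 came from pups gavaged with PLX3397 and 4 from pups gavaged with vehicle, in both cases between day 9 and day 15, and each group held 2 females and 2 males. The labels give no strain, allele or transgene and name the source only as brain, and the design text speaks of 8 hypothalami. PLX3397 is a kinase inhibitor that blocks CSF1R, the receptor on which microglia depend, and the study used it to ask what microglia contribute to postnatal development of the hypothalamus. Total counts were 55900335 to 67487391 in PLX3397 libraries and 54115300 to 60001808 in vehicle libraries, and each tested collagen gene had between 11 and 14593 counts in every library. All 15 hypothalamic markers examined had counts in every library. Csf1r itself stood at 0.183 to 0.962 FPKM in PLX3397 libraries, against 11.7 to 12.9 FPKM in vehicle libraries. The labels do not say that libraries of a group came from separate litters, so p-values measure the spread between these samples.

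Collagens are matrix proteins whose chains wind around each other into a helix built from repeated Gly-X-Y triplets, with glycine at the start of each triplet. Fibrillar collagens assemble into cable-like fibrils, collagen IV forms the sheet of basement membranes, and FACIT collagens (fibril-associated collagens with interrupted helices) attach to the surface of fibrils. In brain, collagen is concentrated in the meninges and in the basement membranes of vessels, while the matrix around neurons is mostly proteoglycan and hyaluronan.

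Fibrillar genes stood apart in the unbroken length of the helix written in the gene. In the longest open reading frame of each gene's GENCODE vM21 coding transcripts, the longest unbroken run of Gly-X-Y triplets was 216 to 344 triplets in the 11 fibrillar genes. Col24a1 and Col27a1 had the shortest of these, with 216 and 217 triplets, and the other 9 had 337 to 344. The 8 basement membrane genes had longest runs of 30 to 66 triplets and were broken into 11 to 27 runs of at least 5 triplets. The 25 others had longest runs of 23 to 113 triplets, and Col9a1, Col9a2, Col9a3 and Col22a1 had 113 each. They were broken into 2 to 21 runs of at least 5 triplets, so they overlapped the basement membrane genes in both measures.

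Of the 43 tested genes, 6 passed the test between treatments, and the 250 bases before the RefSeq start (GRCm38.p6) are shown for 5 of them. No RefSeq window was matched for the other, Col9a3. Capitals mark a GC box, GGGCGG on either strand (CCGCCC on the strand shown). The Col20a1 window lies at chr2:180986285-180986534, that of Col27a1 at chr4:63215162-63215411, that of Col11a2 at chr17:34038888-34039137, that of Col15a1 at chr4:47207762-47208011 and that of Col7a1 at chr9:108953336-108953585, all on the plus strand. The first 3 genes were lower after PLX3397 and the other 2 higher.
Col20a1: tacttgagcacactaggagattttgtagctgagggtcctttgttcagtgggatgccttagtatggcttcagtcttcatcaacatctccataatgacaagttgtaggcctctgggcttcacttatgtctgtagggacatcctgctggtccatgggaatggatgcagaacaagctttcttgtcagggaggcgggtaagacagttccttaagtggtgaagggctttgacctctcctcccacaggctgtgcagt
Col27a1: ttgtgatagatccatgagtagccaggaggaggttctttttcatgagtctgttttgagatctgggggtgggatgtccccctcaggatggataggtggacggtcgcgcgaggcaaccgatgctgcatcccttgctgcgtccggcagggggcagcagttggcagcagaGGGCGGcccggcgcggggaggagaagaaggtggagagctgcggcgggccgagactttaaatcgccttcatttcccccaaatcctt
Col11a2: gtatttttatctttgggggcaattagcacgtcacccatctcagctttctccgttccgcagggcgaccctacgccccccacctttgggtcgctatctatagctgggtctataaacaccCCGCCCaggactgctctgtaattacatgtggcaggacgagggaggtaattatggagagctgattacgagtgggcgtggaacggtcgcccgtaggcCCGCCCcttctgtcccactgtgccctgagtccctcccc
Col15a1: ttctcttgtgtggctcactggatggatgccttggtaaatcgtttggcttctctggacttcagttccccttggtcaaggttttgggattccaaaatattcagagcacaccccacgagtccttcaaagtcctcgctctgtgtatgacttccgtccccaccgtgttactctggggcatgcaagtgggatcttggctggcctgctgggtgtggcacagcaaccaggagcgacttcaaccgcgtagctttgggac
Col7a1: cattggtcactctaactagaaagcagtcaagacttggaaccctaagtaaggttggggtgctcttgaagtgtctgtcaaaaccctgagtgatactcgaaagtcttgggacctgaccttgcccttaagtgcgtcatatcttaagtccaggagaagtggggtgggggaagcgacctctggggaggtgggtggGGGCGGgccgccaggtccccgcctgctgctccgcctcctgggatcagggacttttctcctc
These windows held 0 GC boxes in Col20a1, 1 in Col27a1, 2 in Col11a2, 0 in Col15a1 and 1 in Col7a1. RefSeq windows were matched for 34 of the 43 tested genes, some with several starts, giving 37 windows. A GC box was present in 59.5% of these windows, against 32.7% of all 32841 windows of the same length. ACAAT, a core of SOX factor motifs, was present on either strand in 5.41% of the collagen windows, against 27.7% of all windows. Other promoter motifs read in the same scan lay near the share of all windows. The TATA box was present in 10.8% of the collagen windows, against 12.4% of all windows. The CCAAT box was present in 35.1% of the collagen windows, against 33.9% of all windows. The median GC content was 59.7% in collagen windows and 52.4% in all windows, and the windows were not matched for base composition. The Col27a1 window lies inside the gene span of the deposited table, which starts at position 63214004 of chromosome 4 (mm10).

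After PLX3397, 4 collagen genes were lower (Col9a3, Col20a1, Col27a1 and Col11a2) and 2 were higher (Col15a1 and Col7a1). Counts were compared with edgeR's quasi-likelihood test, with sex as a covariate and p-values adjusted by Benjamini-Hochberg over all 22423 genes tested. The genes that passed as lower were 4 of 43, or 9.30%, where 1.27% of all tested genes passed as lower. Those that passed as higher were 2 of 43, or 4.65%, where 0.205% of all tested genes did. The other 37 did not pass, and signs over the 43 were mixed, with 21 positive and 22 negative log2 fold changes. The median log2 fold change was −0.01 over the collagen genes and −0.00 over all tested genes.

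**Figure D1:**
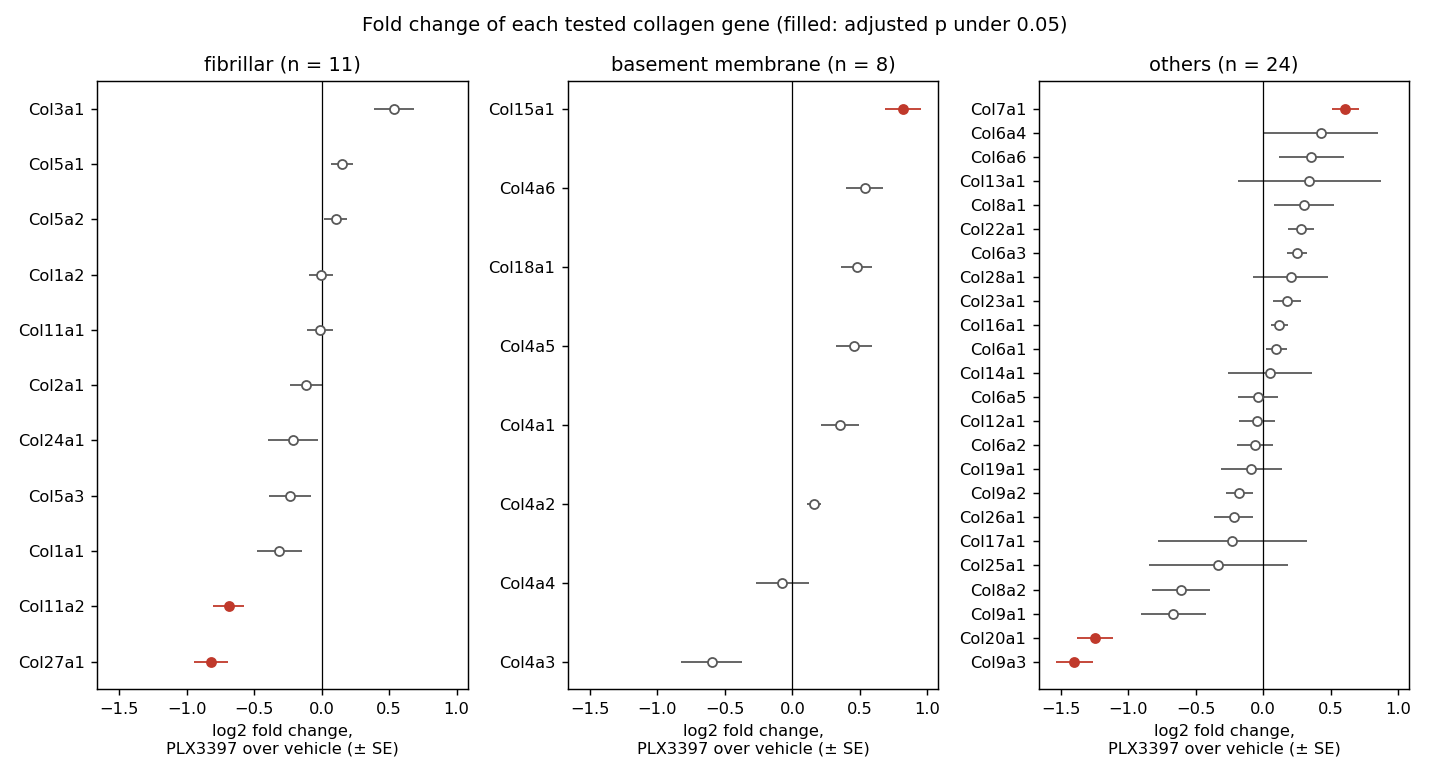
Log2 fold change of PLX3397 over vehicle with its SE for each of the 43 tested collagen genes, one panel per class, ordered by fold change; filled points passed the test at an adjusted p under 0.05. Col9a3 and Col20a1 stand at the low end of the others, Col27a1 and Col11a2 at the low end of the fibrillar genes, and Col15a1 and Col7a1 at the high end of their panels.

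Col9a3 encodes a chain of collagen IX, a FACIT collagen best known from cartilage, where it coats collagen II fibrils. It lies on chromosome 2 from 180597790 to 180622189 (mm10, plus strand, ENSMUSG00000027570). Where 4 values are given per group, they run through females F1 and F2 and then males M1 and M2. Levels of Col9a3 were 3.52, 3.12, 2.42 and 2.60 FPKM in PLX3397 libraries, against 7.32, 6.96, 8.13 and 8.51 FPKM in vehicle libraries. Every PLX3397 library lay below every vehicle library. Col9a3 fell by 1.40 ± 0.14 on the log2 scale (SE, n = 4 each, adjusted p = 0.00601), or 2.64-fold lower.

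Col20a1, another FACIT gene on chromosome 2 (180986535 to 181017714, plus strand, ENSMUSG00000016356), showed the same order of groups. It had 0.751, 0.722, 0.609 and 0.622 FPKM in PLX3397 libraries, against 1.54, 1.52, 1.498 and 1.92 FPKM in vehicle libraries. Col20a1 fell by 1.24 ± 0.13 on the log2 scale (SE, n = 4 each, adjusted p = 0.00729), or 2.37-fold lower. It shares 741 bases with 9230112E08Rik on the same strand, a gene with a log2 fold change of 0.03 (adjusted p = 0.950), and no source used here says how shared reads were assigned. Col9a3 and Col20a1 each passed with any 1 of the 8 libraries left out, at adjusted p-values from 0.0103 to 0.0299 for Col9a3 and from 0.0159 to 0.0378 for Col20a1.

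Col27a1 and Col11a2 are fibrillar genes, both known from cartilage. Col27a1 (chromosome 4, 63214004 to 63333749, plus strand, ENSMUSG00000045672) encodes one of the fibrillar chains with a shorter unbroken run of Gly-X-Y triplets. It had 0.695, 0.640, 0.551 and 0.649 FPKM in PLX3397 libraries, against 1.32, 0.924, 1.19 and 1.08 FPKM in vehicle libraries. The groups did not overlap, and vehicle F2 was the closest to the PLX3397 libraries. Col27a1 fell by 0.82 ± 0.13 on the log2 scale (SE, n = 4 each, adjusted p = 0.0293), or 1.76-fold lower. Col11a2 (chromosome 17, 34039437 to 34066685, plus strand, ENSMUSG00000024330) encodes a chain of collagen XI, which sits inside collagen II fibrils and limits their width. Its levels were 5.30, 4.89, 6.01 and 4.05 FPKM in PLX3397 libraries, against 7.95, 7.75, 8.98 and 8.31 FPKM in vehicle libraries. Here too no PLX3397 library reached the lowest vehicle library. Col11a2 fell by 0.69 ± 0.12 on the log2 scale (SE, n = 4 each, adjusted p = 0.0388), or 1.61-fold lower.

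Col15a1 encodes the core protein of a collagen-type proteoglycan, a multiplexin that bridges basement membranes to the matrix beneath. It lies on chromosome 4 from 47208161 to 47313167 (plus strand, ENSMUSG00000028339). It had 4.91, 3.57, 5.24 and 5.09 FPKM in PLX3397 libraries, against 3.09, 2.18, 2.71 and 2.71 FPKM in vehicle libraries. The lowest PLX3397 library, F2, lay above the highest vehicle library, F1. Col15a1 rose by 0.82 ± 0.14 on the log2 scale (SE, n = 4 each, adjusted p = 0.0353), or 1.77-fold higher. Col7a1, which encodes the anchoring fibrils of skin, lies on chromosome 9 from 108953586 to 108984875 (plus strand, ENSMUSG00000025650). Its levels were low in both groups, with 0.897, 0.697, 1.06 and 1.115 FPKM in PLX3397 libraries, against 0.561, 0.538, 0.675 and 0.693 FPKM in vehicle libraries. The gap between the groups was narrow, since PLX3397 F2 stood just above vehicle M2. Col7a1 rose by 0.61 ± 0.10 on the log2 scale (SE, n = 4 each, adjusted p = 0.0347), or 1.52-fold higher.

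The calls of Col15a1, Col7a1, Col27a1 and Col11a2 were lost when some single libraries were left out, and in most such fits so were calls across the table. Over all 22423 genes, 46 passed as higher and 285 as lower with all 8 libraries. With 1 library left out, 13 to 30 passed as higher and 98 to 303 as lower. Without PLX3397 F1, 303 passed as lower, more than with all libraries, yet Col11a2 lost its call (adjusted p = 0.0644). Col15a1 lost its call without PLX3397 F1, M1 or M2 or without vehicle F2, M1 or M2, with adjusted p up to 0.140 and log2 fold changes of 0.75 to 0.81 in those fits. Col7a1 lost it when any library other than PLX3397 F2 was left out, with adjusted p up to 0.130 and log2 fold changes of 0.54 to 0.63. Col27a1 lost it without PLX3397 F2, M1 or M2 or vehicle F1, M1 or M2, with adjusted p up to 0.104 and log2 fold changes of −0.85 to −0.74. Col11a2 lost it when any library other than PLX3397 M2 was left out, with adjusted p up to 0.131 and log2 fold changes of −0.78 to −0.65. By limma-trend on log2(FPKM + 0.5), Col27a1 (log2 fold change −0.52, adjusted p = 0.0674) and Col7a1 (0.36, adjusted p = 0.116) did not pass, and without the sex covariate Col7a1 did not (adjusted p = 0.115). With vehicle F1 and PLX3397 M2 both left out, no collagen gene passed in edgeR, and 15 had an unadjusted p under 0.05. Over all 22423 genes, 7 then passed as higher and 66 as lower, so that calls were lost across the table. The 6 genes then had adjusted p-values of 0.0561 to 0.240, and Col9a3 still stood at a log2 fold change of −1.42.

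**Figure D2:**
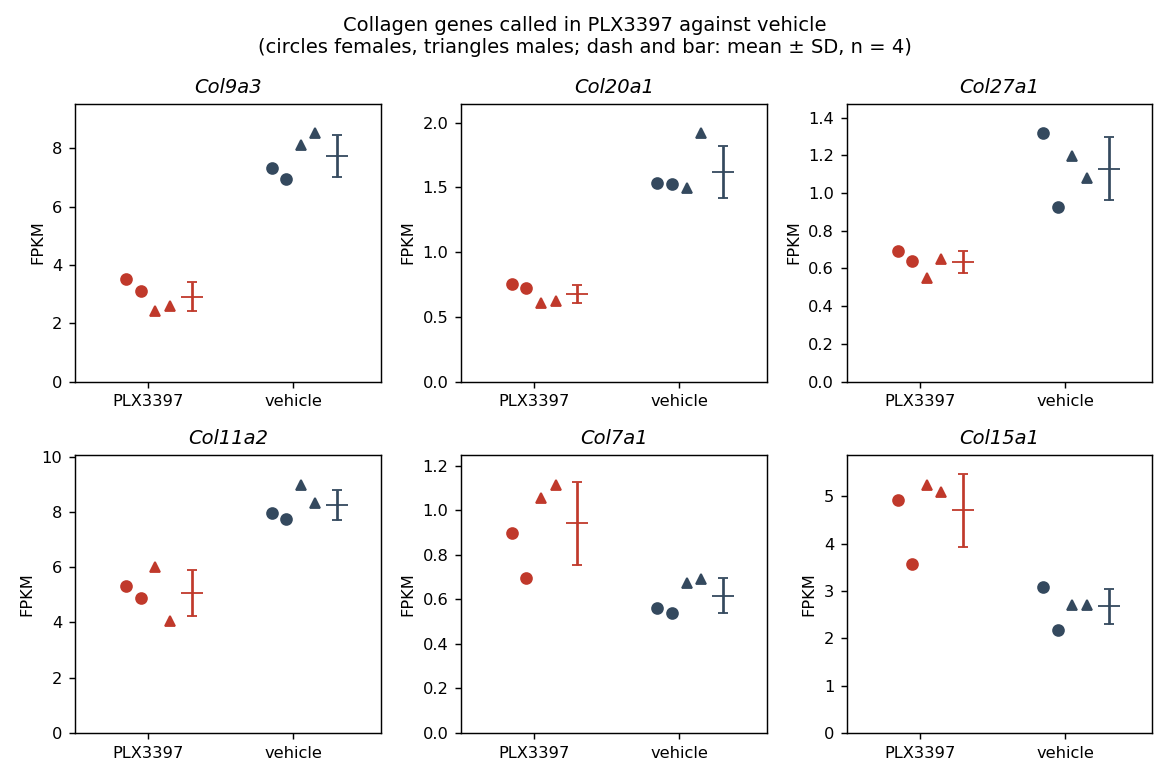
FPKM of the 6 collagen genes that passed the test, by library, with PLX3397 on the left and vehicle on the right of each panel; circles are females, triangles are males, and dashes with bars give the mean ± SD (n = 4). In each panel the groups do not overlap, with the narrowest gap in Col7a1.

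Markers of some cell types were also lower after PLX3397, in lists chosen with earlier results of these data known. Markers of oligodendrocyte precursors and committed oligodendrocytes summed to 91.9 to 123 FPKM in PLX3397 libraries, against 257 to 384 FPKM in vehicle libraries. Of these 12 markers, 9 fell and 0 rose, where 1.27% of all tested genes fell and 0.205% rose. Their median log2 fold change was −1.32, and none was at 0 in any library. Of 10 myelin markers 2 fell, with a median of −1.16 and sums of 362 to 827 FPKM in PLX3397 libraries and 1109 to 1655 FPKM in vehicle libraries. Of 12 microglia markers 8 fell, with a median of −3.90 and sums of 10.0 to 19.97 FPKM in PLX3397 libraries and 116 to 120 FPKM in vehicle libraries. C1qa, Trem2, Siglech and Fcrls were at 0 counts in at least 1 library. The part of these cells in the collagen values was not tested, and in bulk tissue fewer cells of a type and less RNA per cell cannot be told apart. Of 8 astrocyte markers none passed, with a median of 0.01, and of 10 neuron markers 1 rose, with a median of 0.12.

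Basement membrane collagen genes held the highest single levels, and most had positive fold changes. The summed level of the 8 genes was 63.3, 56.3, 60.8 and 54.6 FPKM in PLX3397 libraries, against 50.9, 45.4, 43.9 and 52.7 FPKM in vehicle libraries. Each PLX3397 sum lay above each vehicle sum, and Col4a2 and Col4a1 made up most of it. Log2 fold changes were positive for 6 of 8 genes and negative for 2, with a median of 0.40. Only Col15a1 passed the test.

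Col4a2 and Col4a1 encode the chains of the collagen IV found in nearly all basement membranes, and lie head to head on chromosome 8 with 22 shared bases on opposite strands. Col4a2, the collagen gene of highest level, had 28.7, 27.7, 28.8 and 25.1 FPKM in PLX3397 libraries, against 24.6, 24.2, 24.4 and 26.2 FPKM in vehicle libraries. Vehicle M2 exceeded PLX3397 M2, so the groups overlapped, and the log2 fold change was 0.16 ± 0.05 (adjusted p = 0.234). Col4a1 had 20.2, 17.5, 17.6 and 16.3 FPKM in PLX3397 libraries, against 15.6, 13.2, 10.7 and 17.1 FPKM in vehicle libraries. Vehicle M2 again lay within the range of the PLX3397 group, and the log2 fold change was 0.35 ± 0.14 (adjusted p = 0.318).

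Among all 43 genes, every PLX3397 library lay above every vehicle library in 7 genes, or 16.3%, where 3.51% of all tested genes were so ordered. These were Col15a1, Col7a1, Col18a1, Col4a5, Col4a6, Col3a1 and Col6a3. The reverse order held in 4 genes, or 9.30%, where 6.41% of all tested genes were so ordered, and these were the 4 that fell. Of the 7, 4 belong to the basement membrane class. Col18a1, the multiplexin whose cleaved end is endostatin, stood at 3.80 to 4.44 FPKM in PLX3397 libraries and 2.56 to 3.59 FPKM in vehicle libraries, with a log2 fold change of 0.48 ± 0.11 (adjusted p = 0.109). Col4a5 and Col4a6 are neighbours on the X chromosome and encode collagen IV chains of fewer tissues. Col4a5 stood at 2.45 to 3.59 FPKM in PLX3397 libraries and 2.09 to 2.42 FPKM in vehicle libraries, and Col4a6 at 0.790 to 0.961 and 0.507 to 0.707 FPKM. Their log2 fold changes were 0.46 ± 0.13 (adjusted p = 0.182) and 0.54 ± 0.14 (adjusted p = 0.131). By DESeq2, Col18a1 (adjusted p = 0.00387), Col4a6 (0.0140), Col3a1 (0.0105) and Col4a5 (0.0337) passed as higher too, which made 6 in all, where 1.64% of all tested genes passed as higher and 3.71% as lower by DESeq2. Col4a3 and Col4a4, chains of the kidney glomerulus, stood between 0.188 and 0.523 FPKM over all libraries, with log2 fold changes of −0.60 (adjusted p = 0.282) and −0.07 (adjusted p = 0.911).

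**Figure D3:**
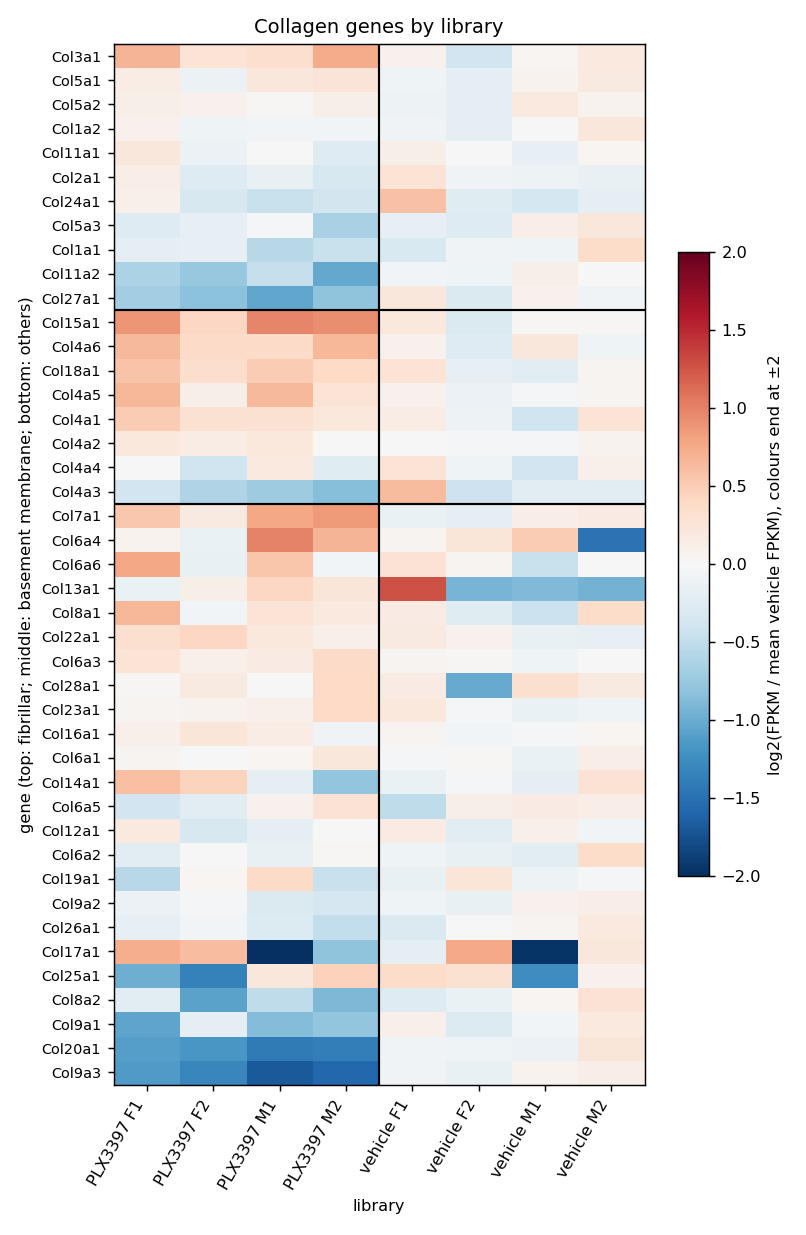
Level of each tested collagen gene in each library as log2 of its FPKM over the mean vehicle FPKM, with PLX3397 libraries left of the line and vehicle libraries right of it, and the classes separated by lines. Most basement membrane genes are above the vehicle mean in all PLX3397 libraries, and Col13a1 in vehicle F1 stands far above the other vehicle libraries.

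Vessels and meninges are the main sources of basement membrane in brain, and their markers were read beside these genes. Endothelial markers summed to 80.4 to 89.8 FPKM in PLX3397 libraries and 75.6 to 91.4 FPKM in vehicle libraries. Of these 13 markers 1 rose (Flt1, a VEGF receptor, log2 fold change 0.25, adjusted p = 0.04999), 0 fell, and the median was −0.08. Of 11 mural cell markers none passed, with a median of −0.08 and sums of 63.4 to 74.3 FPKM in PLX3397 libraries and 60.2 to 78.2 FPKM in vehicle libraries. Of 15 tested meningeal fibroblast markers 2 rose, Slc6a13 (log2 fold change 0.74, adjusted p = 0.0265) and Tbx18 (log2 fold change 1.13, adjusted p = 0.0324), and 0 fell. Over all tested genes 0.205% rose and 1.27% fell. The meningeal median was 0.36 and the sums overlapped, at 524 to 838 FPKM in PLX3397 libraries and 362 to 749 FPKM in vehicle libraries. None of the endothelial, mural or tested meningeal markers was at 0 in any library. How much meningeal tissue each dissection carried is not recorded in the labels, and its part in Col15a1, Col7a1 and the basement membrane sum was not tested.

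**Figure D4:**
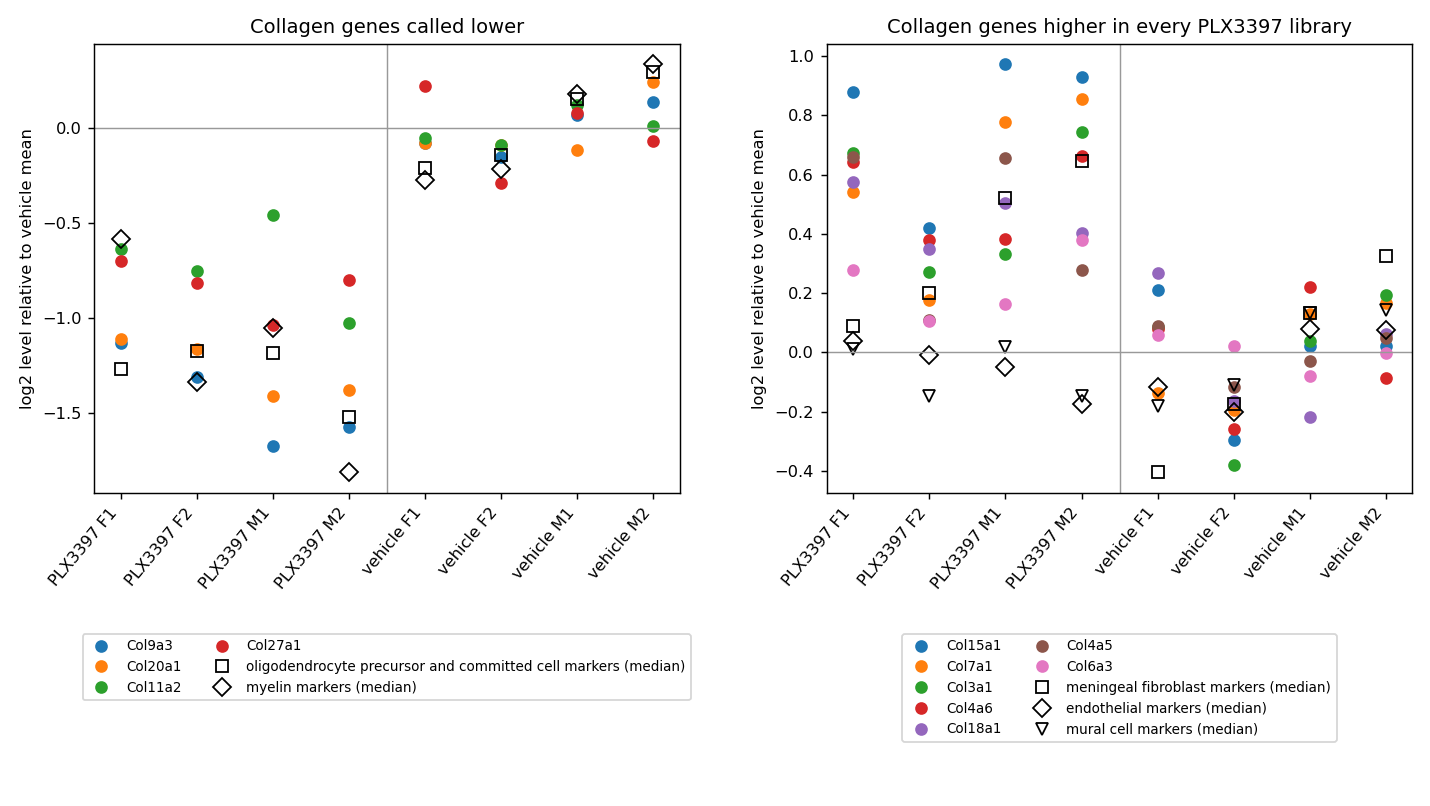
Log2 level relative to the vehicle mean in each library, with PLX3397 libraries left and vehicle libraries right. On the left the 4 collagen genes that fell are drawn with the medians of oligodendrocyte lineage and myelin markers, which are also below the vehicle mean in each PLX3397 library; on the right the 7 genes higher in every PLX3397 library are drawn with meningeal, endothelial and mural medians, of which the meningeal median is above the vehicle mean in each PLX3397 library and also in vehicle M1 and M2.

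Fibrillar collagen genes had mostly negative fold changes. Their summed level was 32.2, 28.3, 29.4 and 27.7 FPKM in PLX3397 libraries, against 32.7, 30.1, 33.6 and 36.3 FPKM in vehicle libraries. These sums overlapped, since PLX3397 F1 exceeded vehicle F2. Log2 fold changes were negative for 8 of 11 genes and positive for 3, with a median of −0.12, and the 2 that passed, Col27a1 and Col11a2, fell. That median rested on single libraries. It was −0.02 without vehicle F1, −0.04 without PLX3397 F2, −0.08 without PLX3397 M2, −0.20 without PLX3397 F1, and 0.01 without both vehicle F1 and PLX3397 M2. The summed level of all collagen genes was 152 ± 5.39 FPKM in PLX3397 libraries and 150 ± 10.6 FPKM in vehicle libraries (SD, n = 4 each), a difference smaller than either spread.

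Col1a1 and Col1a2, the chains of collagen I, gave no call. Col1a2 had 4.76, 4.22, 4.32 and 4.34 FPKM in PLX3397 libraries, against 4.26, 3.97, 4.48 and 5.24 FPKM in vehicle libraries, and its log2 fold change was −0.01 ± 0.09 (adjusted p = 0.987). Col1a1 stood at 3.12 to 4.10 FPKM in PLX3397 libraries and 3.73 to 5.95 FPKM in vehicle libraries, with a log2 fold change of −0.31 ± 0.17 (adjusted p = 0.467). Col3a1, which forms the thin reticular fibrils of soft tissues and vessel walls, stood at 3.62 to 5.03 FPKM in PLX3397 libraries and 2.30 to 3.43 FPKM in vehicle libraries. Its groups did not overlap, and its log2 fold change was 0.54 ± 0.15 (adjusted p = 0.159). Col11a1, the partner chain of Col11a2, had 5.26, 4.12, 4.52 and 3.73 FPKM in PLX3397 libraries, against 4.82, 4.49, 3.98 and 4.58 FPKM in vehicle libraries. Its groups overlapped, with a log2 fold change of −0.01 ± 0.10 (adjusted p = 0.983). The collagen V genes Col5a1, Col5a2 and Col5a3, whose product starts and limits fibrils, had log2 fold changes of 0.15, 0.10 and −0.23. Col2a1, the main fibril of cartilage, and Col24a1 stood at −0.12 and −0.21, and none of these 5 passed.

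The remaining 24 tested genes were evenly split, with 12 positive and 12 negative log2 fold changes and a median of 0.01. Col6a1, a chain of the beaded filaments of collagen VI, had 10.6, 10.1, 10.4 and 11.9 FPKM in PLX3397 libraries, against 9.91, 10.3, 9.22 and 11.2 FPKM in vehicle libraries (log2 fold change 0.10 ± 0.08, adjusted p = 0.641). The 6 collagen VI genes had log2 fold changes of −0.06 to 0.43, and none passed. Col6a3 was the one of them whose groups did not overlap, at 2.06 to 2.48 FPKM in PLX3397 libraries and 1.81 to 1.99 FPKM in vehicle libraries (log2 fold change 0.25 ± 0.08, adjusted p = 0.190).

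The 9 FACIT genes had 6 negative and 3 positive log2 fold changes, with a median of −0.09. Col9a2, a partner of Col9a3, had 9.68, 10.2, 8.54 and 8.26 FPKM in PLX3397 libraries, against 9.80, 9.46, 11.1 and 11.4 FPKM in vehicle libraries. Its PLX3397 F2 value exceeded those of vehicle F1 and F2, and its log2 fold change was −0.18 ± 0.10 (adjusted p = 0.502). Col9a1, also of collagen IX, was low, at 0.231 to 0.423 FPKM in PLX3397 libraries and 0.396 to 0.547 FPKM in vehicle libraries (log2 fold change −0.67 ± 0.24, adjusted p = 0.266). Col16a1, the FACIT gene next in level, had 9.63, 10.6, 9.92 and 8.57 FPKM in PLX3397 libraries, against 9.32, 8.66, 8.72 and 9.18 FPKM in vehicle libraries (log2 fold change 0.12 ± 0.06, adjusted p = 0.456). PLX3397 M2 was lower than each vehicle library, and the other PLX3397 libraries were higher. The FACIT genes Col12a1, Col14a1, Col19a1 and Col22a1, all at 1.02 FPKM or less in every library, had log2 fold changes of −0.04, 0.05, −0.09 and 0.28 and did not pass.

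The genes of widest spread were transmembrane collagens, since Col17a1, Col13a1 and Col25a1 had the largest SEs of the log2 fold change among the 43 genes, at 0.55, 0.53 and 0.51. Col25a1, a membrane collagen of neurons first found in amyloid plaques, stood at 3.51, 2.69, 8.05 and 9.44 FPKM in PLX3397 libraries, against 8.84, 8.44, 2.89 and 7.28 FPKM in vehicle libraries. Both groups held low and high libraries, and the log2 fold change was −0.33 (adjusted p = 0.840). By sex it was −1.45 in females and 0.78 in males. The difference of effects, −2.23, did not pass in edgeR (adjusted p = 0.712) or by DESeq2 (adjusted p = 0.0933). Col13a1, which helps to form neuromuscular junctions, stood at 0.715 to 1.04 FPKM in PLX3397 libraries and 0.407 to 1.89 FPKM in vehicle libraries, where vehicle F1 was the library at 1.89. With all 8 libraries its log2 fold change was 0.34 (adjusted p = 0.842), and without vehicle F1 it was 1.11 (adjusted p = 0.0360). Pituitary markers summed to 3081 FPKM in vehicle F1, against 8.28 to 13.6 FPKM in PLX3397 libraries and 2.76 to 9.29 FPKM in the other vehicle libraries, and the part of pituitary tissue in the Col13a1 value was not tested. Col23a1 and Col17a1, also of the membrane, and Col26a1 and Col28a1 had log2 fold changes of 0.18, −0.23, −0.22 and 0.20, and none passed.

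Pairs of collagen genes were also compared within each library. Ratios of FPKM were formed for 12 pairs, and in 4 of them the groups did not overlap. Because the same libraries and genes enter these ratios and the results above, they are given as descriptions with no test. Col9a3, Col11a2 and Col3a1, which enter ratios that separate, had groups that did not overlap on their own. No share over other pairs of genes was computed, so the count has nothing to be set against. Col9a3 over Col9a2 was 0.364, 0.306, 0.284 and 0.315 in PLX3397 libraries, against 0.747, 0.736, 0.729 and 0.747 in vehicle libraries. Col11a2 over Col11a1 was 1.01 to 1.33 in PLX3397 libraries and 1.65 to 2.25 in vehicle libraries. Col3a1 over Col1a2, genes of collagens III and I rather than chains of the same collagen, was 0.857 to 1.16 in PLX3397 libraries. In vehicle libraries it was 0.581 to 0.746. Col8a2 over Col8a1, the chains of a network collagen of vessels and cornea, was 0.737 to 0.907 in PLX3397 libraries and 1.17 to 2.16 in vehicle libraries. The vehicle ratios of Col9a3 over Col9a2 were closely alike, with a mean of 0.740 ± 0.00866 (SD, n = 4), while those of the collagen VIII pair were spread over a wide range. Neither Col8a1 nor Col8a2 passed the test itself, with log2 fold changes of 0.30 (adjusted p = 0.602) and −0.61 (adjusted p = 0.257).

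**Figure D5:**
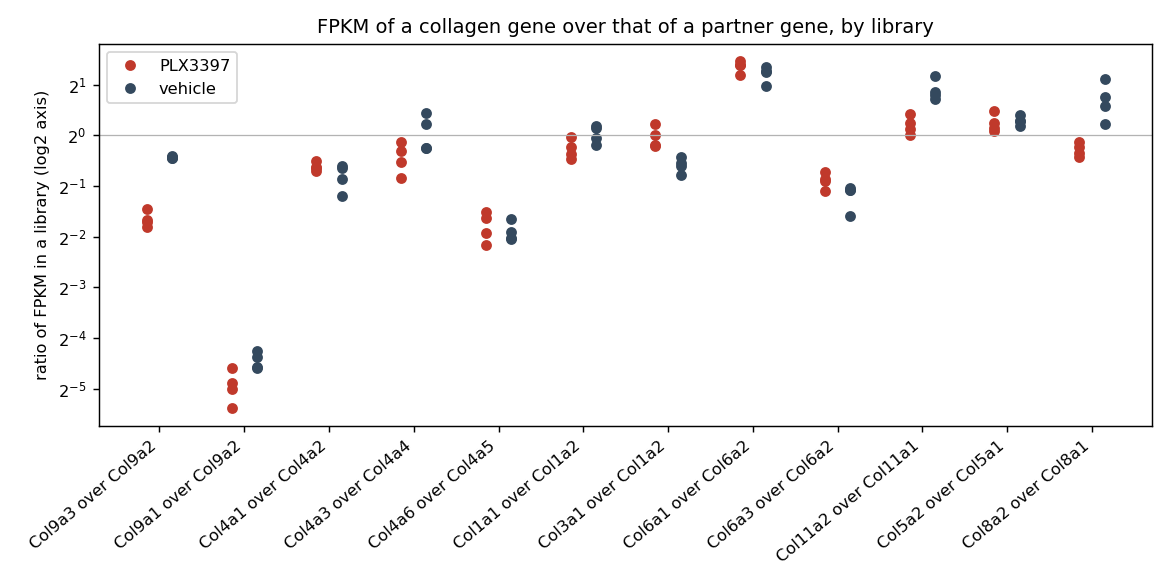
Ratio of the FPKM of a collagen gene to that of the gene paired with it in each library, on a log2 axis, with PLX3397 left and vehicle right for each of 12 pairs. The groups separate in Col9a3 over Col9a2, Col3a1 over Col1a2, Col11a2 over Col11a1 and Col8a2 over Col8a1, and overlap in the other 8.

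The treatment effects on the 6 genes that passed had the same sign in both sexes. Their groups did not overlap, so this sign was set in advance and adds no support. Col9a3 had a log2 fold change of −1.07 in females and −1.73 in males. Col20a1 stood at −1.02 and −1.47, Col27a1 at −0.71 and −0.92 and Col11a2 at −0.59 and −0.78, females first. Col15a1 stood at 0.72 in females and 0.93 in males, and Col7a1 at 0.56 and 0.66. The difference of effects, females minus males, passed for 0 of 43 collagen genes in edgeR, where 0.00446% of all tested genes passed, and 7 had an unadjusted p under 0.05. DESeq2 called 2, where it called 0.656% of all tested genes. These were Col9a3 (difference 0.65, adjusted p = 0.0441) and Col9a2 (difference 0.50, adjusted p = 0.0376), for which edgeR gave adjusted p-values of 0.495 and 0.449. Females against males over both treatments gave 0 of 43 in edgeR, where 0.0446% of all tested genes passed, with 5 at an unadjusted p under 0.05 and 0 by DESeq2.

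Genes that build, bind or cut collagen were read in 7 lists of 88 genes, of which 80 were tested. Of these, 1 rose and 1 fell, 1.25% each way, where 0.205% of all tested genes rose and 1.27% fell, and the median log2 fold change was 0.02. The share that fell was that of all genes. The gene that rose was Lama1, a laminin chain of the early basement membrane, at 2.25 to 3.39 FPKM in PLX3397 libraries and 1.47 to 1.68 FPKM in vehicle libraries (log2 fold change 0.82 ± 0.10, adjusted p = 0.0111). Without vehicle M2 its adjusted p was 0.0578, at a log2 fold change of 0.79. The gene that fell was Ddr1, a receptor kinase activated by collagen, at 13.2 to 16.9 FPKM in PLX3397 libraries and 21.6 to 29.1 FPKM in vehicle libraries (log2 fold change −0.76 ± 0.09, adjusted p = 0.0104).

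Enzymes that hydroxylate collagen in the endoplasmic reticulum were listed with partners that do not, such as Crtap, Ppib, Colgalt1 and Colgalt2. These 14 genes gave 0 calls, and the smallest adjusted p was that of Plod1, a lysyl hydroxylase (log2 fold change −0.32, adjusted p = 0.116). Folding and export gave 0 of 10, with Sec23a, a vesicle coat protein needed for collagen export, at 0.14 (adjusted p = 0.143). Procollagen processing and cross-linking gave 0 of 12, with Bmp1, which cleaves the end of procollagen, at −0.42 (adjusted p = 0.105). Among 13 small proteoglycans and matrix partners none passed, and Dcn, the fibril-binding decorin, stood at 0.88 (adjusted p = 0.0981). Of the 13 basement membrane partners only Lama1 passed, with a median of 0.08, and of the 10 tested receptors only Ddr1, with a median of −0.05. Collagen-cleaving proteases, listed together with the protease inhibitors Timp1, Timp2 and Timp3, gave 0 of 8 tested. Mmp14, a membrane collagenase, stood at −0.18 (adjusted p = 0.299). By DESeq2, 9 of the 80 genes passed as higher (11.3%, against 1.64% of all tested genes) and 3 as lower (3.75%, against 3.71%).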

How the data were processed

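Ribosomal RNA was removed by probe capture and cDNA was made from random primers, per the labels' protocols; no source used here says whether strand was kept. The build mm10 and the tools HISAT2, StringTie, bcl2fastq 2.0, limma and DESeq2 come from the submitters' processing notes, which give no roles. Per the file headers, the deposited table holds a read count per gene and library, not normalized, and FPKM values that the authors derived, which are used here as levels. Coordinates are those of the table.

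Counts of 22423 genes (mean FPKM of at least 0.1) were tested with edgeR 4.0.16 in R 4.3.3, using TMM scaling, a quasi-likelihood F-test, sex as covariate and a threshold of 0.05 after Benjamini-Hochberg adjustment; 32978 genes were not tested. Each SE was derived from F, as the size of the log2 fold change over the root of F. DESeq2 1.42.0, limma 3.58.1, other filters and scalings, a replicate block and left-out libraries were alternatives. The test was also run on simulated counts with the same spread for every gene and no difference between sexes. That setting is simpler than these libraries, so the error rate in these data was not checked. Gene classes and lists were chosen with earlier results of these data known. Values in every library are given for genes that passed, and for the 3 of highest mean FPKM in each class; of related lists, the genes that passed or the one of smallest p. Col25a1, Col13a1 and the genes with separate groups or separate ratios of pairs were picked out after their values were seen. A count of 0 allows up to 3 counts, for counting error only.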

Additional observations from a re-analysis of the deposited data

Results flagged for a closer look

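Within-group gaps were examined in 86 groups of 4 libraries (43 genes in 2 groups), and in 7 the extreme library stood apart from the other 3 by more than Dixon's limit; chance gives about 1 in 20. Of these, 5 lay in vehicle F1, the library whose pituitary markers summed to 3081 FPKM. The part of pituitary tissue in these 5 values was not tested. Col13a1 was at 1.89 FPKM in vehicle F1, against 0.407 to 0.424 FPKM in the other vehicle libraries. Col24a1, a fibrillar gene, was at 1.499 FPKM, against 0.784 to 0.880 FPKM. Col2a1, the main collagen of cartilage, was at 1.07 FPKM, against 0.801 to 0.846 FPKM. Col4a3 was at 0.523 FPKM, against 0.253 to 0.289 FPKM. Col6a5, of collagen VI, was lower in vehicle F1, at 0.530 FPKM, against 0.819 to 0.852 FPKM. Without vehicle F1 the log2 fold change of PLX3397 over vehicle was −0.02 for Col24a1, −0.05 for Col2a1, −0.35 for Col4a3 and −0.14 for Col6a5, and none of these passed the test. The other 2 were Col23a1, a membrane collagen, at 9.67 FPKM in PLX3397 M2, against 7.64 to 7.92 FPKM in the other PLX3397 libraries, and Col20a1 at 1.92 FPKM in vehicle M2, against 1.498 to 1.54 FPKM in the other vehicle libraries. Without vehicle M2, Col20a1 had a log2 fold change of −1.12 (adjusted p = 0.0239).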

How the results depend on the processing

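Under the 20 alternatives run, the 6 genes that passed kept their direction. Their groups did not overlap, so leaving out libraries could hardly reverse it. The all-gene split was 46 higher and 285 lower in edgeR and 368 and 833 by DESeq2. Collagen genes that passed as higher were 2 in the result given and 6 by DESeq2, 1 by limma-trend on log2(FPKM + 0.5), log2(FPKM + 0.1) or log2(FPKM + 1), 1 without the sex covariate and 0 without vehicle F1 and PLX3397 M2 (7 higher and 66 lower over all genes); leaving out each library gave 0 to 2. Those lower were 4, 0 without both libraries and 2 to 3 with each left out. Related genes that passed as higher were 1, against 9 by DESeq2, 2 without the sex covariate, 0 without both libraries and 0 to 3 with each left out; those lower were 1, against 3 by DESeq2 and 0 without both libraries. The fibrillar median, −0.12, was −0.20 to −0.02 with each library left out and 0.01 without both libraries. The median of the other class, 0.01, was 0.11 by limma-voom and −0.027 to 0.095 with each library left out. DESeq2 called 2 differences between sexes.

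Replicate labels F1 to M2 did not pair the libraries: deviations of same-numbered libraries correlated at 0.042, 0.009, 0.034 and 0.020. With the replicate block, 1 collagen gene passed as higher (Col15a1) and 0 as lower (17 had an unadjusted p under 0.05), with 0 of the related genes either way. Over the whole table the block left 3 genes higher and 25 lower, so that calls were lost well beyond the collagens.

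Of 43 genes, 12 changed sign in at least 1 of the alternatives, and none of these 12 had passed the test. With upper-quartile scaling Col1a2 stood at 0.0094 and Col11a1 at 0.0057, by limma-voom Col17a1 at 0.12, and without the sex covariate Col17a1 at 0.0095. Without both libraries Col4a4 stood at 0.11, Col1a2 at 0.0079, Col11a1 at 0.072 and Col2a1 at 0.0067. With each library left out, log2 fold changes were −0.20 to 0.041 for Col4a4, −0.073 to 0.074 for Col1a2, −0.093 to 0.049 for Col11a1, −0.82 to 0.045 for Col25a1, −0.15 to 0.088 for Col6a2, −0.16 to 0.040 for Col12a1, −0.14 to 0.12 for Col6a5, −0.30 to 0.051 for Col19a1, −0.028 to 0.40 for Col28a1, −0.11 to 0.28 for Col14a1 and −0.53 to 0.41 for Col17a1. The cause was not tested. The 7 genes under a mean of 0.5 FPKM have no value at that filter. With 4 libraries a group, low genes limit the precision.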
